A study of Mus with 9 samples.

Results

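The 46 genes described here encode proteins of the complement cascade and of blood clotting and clot removal. They were taken by gene name from a kidney RNA-seq table of 54532 mouse genes. By role they comprise 8 genes of the classical pathway, 5 of the lectin pathway, 3 around C3 and the alternative pathway, 5 of the terminal pathway, 5 receptors, 8 regulators, 5 genes of the start and common path of coagulation, 4 of fibrin and its crosslinking, and 3 of plasminogen activation. The kidneys came from male C57BL/6 mice, and all groups had undergone removal of 1 kidney at 18 months of age. The 18 mo group was killed 1 week after the operation. The 21 mo group then received saline intraperitoneally each day for 12 weeks. The 21 mo/O304 group received O304, a small-molecule activator of the energy-sensing kinase AMPK, by the same route and for the same time, at a daily dose of 10 mg/kg. Each group held 3 mice with 1 library per mouse, so the comparisons address how these transcripts differ with age and with O304. Age, time since surgery and daily injections all set the 18 mo mice off from the rest and cannot be told apart.

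Complement is a chain of plasma and cell-surface proteins in which the classical, lectin and alternative routes meet at the cleavage of C3, after which small peptides recruit leukocytes and a terminal complex can form pores in membranes. Coagulation converts fibrinogen to crosslinked fibrin, and plasmin, made by plasminogen activators, dissolves it. The liver makes most of the circulating proteins, but kidney tubule cells, fibroblasts, endothelium and resident macrophages also transcribe many of these genes, and local C3 and fibrinogen transcripts are well known in injured tubules.

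The 9 libraries held 15636378 to 18396725 counts each. Levels are given as CPM, counts scaled to a common library size by TMM, in which 1 count was worth 0.0458 to 0.0669 CPM. The biological coefficient of variation was 18.1% among the 18 mo mice, 44.1% among the 21 mo mice and 20.6% among the 21 mo/O304 mice, so the 21 mo libraries stood apart from one another. Proximal tubule markers such as Lrp2, the endocytic receptor megalin, were abundant in most libraries, but their summed level was 13257, 6302 and 1518 CPM in 21 mo replicates 1 to 3, against 12507 to 16058 CPM in the 18 mo group and 14153 to 15100 CPM in the 21 mo/O304 group. Macrophage markers (10 genes) summed to 231 to 362 CPM at 18 mo, to 555, 972 and 2793 CPM in the 21 mo replicates and to 457 to 476 CPM with O304. Injured tubule markers (6 genes, led by Spp1) summed to 659 to 786 CPM at 18 mo, to 1305, 12252 and 14080 CPM at 21 mo and to 690 to 1048 CPM with O304. Fibroblast markers (7 genes) summed to 169 to 248 CPM, then to 134, 566 and 1321 CPM, and to 105 to 250 CPM. In whole kidney, fewer cells of a type and less RNA per cell cannot be told apart, and the part of these cell types in the differences below was not tested.

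**Figure D1:**
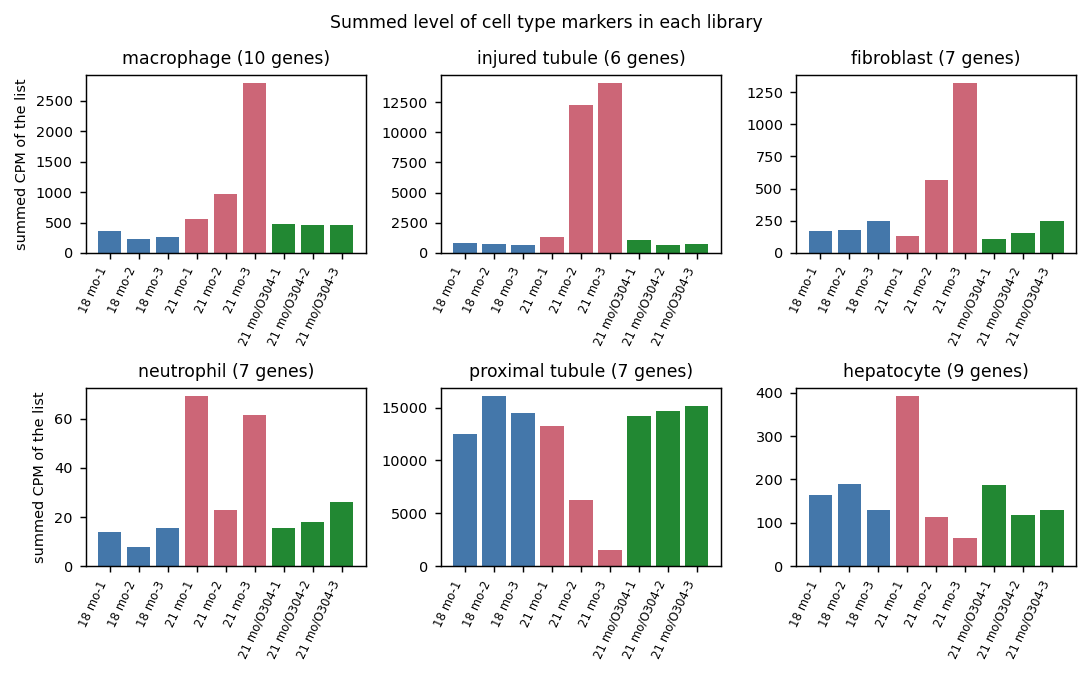
Summed level (CPM, linear axis from 0) of 6 cell type marker lists in each of the 9 libraries, with blue bars for 18 mo, red for 21 mo and green for 21 mo/O304. Macrophage, injured tubule and fibroblast sums were highest in 21 mo replicate 3, where the proximal tubule sum was lowest at 1518 CPM. Of the injured tubule markers, Spp1, Lcn2 and Sox9 were higher in replicate 3 than in replicate 2, and Havcr1, Vcam1 and Krt20 were lower. The neutrophil and hepatocyte sums were highest in 21 mo replicate 1.

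Of the 46 genes, 41 passed the filter on low counts, and 15902 genes were tested in all. The 5 genes under the filter were Mbl2, a mannose-binding lectin, with 0 to 12 counts per library, Hc, which encodes C5, with 0 to 5, C9, the pore-forming end component, with 0 to 14, Vtn (vitronectin) with 0 to 6, and Vsig4, a complement receptor of tissue macrophages, with 0 to 8. Vsig4 had 0 counts in all 18 mo libraries and its 8 counts in 21 mo replicate 3. Per length, by the authors' FPKM within the 18 mo libraries, the most abundant members were Plau (urokinase) with a mean of 214 FPKM, Clu (clusterin) with 75.1 FPKM, and the C1q chain genes C1qa, C1qb and C1qc with 68.8, 66.5 and 23.1 FPKM. In the 21 mo libraries Clu took the first rank with a mean of 420 FPKM. C3 was at rank 18 of the 46 in the 18 mo libraries and at rank 5 in the 21 mo libraries, and Cfb at ranks 10 and 27. These ranks rest on means over 21 mo libraries that differed widely.

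**Figure D2:**
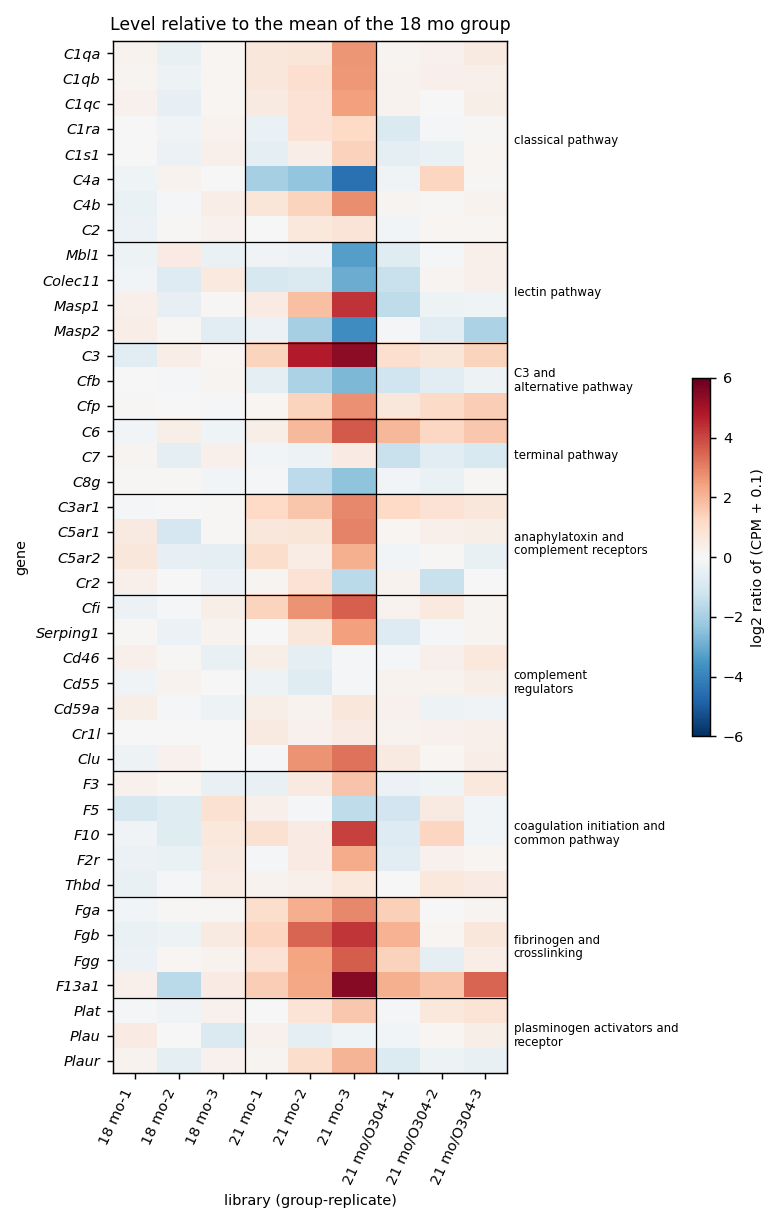
Heat map of the 41 tested genes (rows, by role) in the 9 libraries (columns), coloured by the log2 ratio of CPM + 0.1 to the mean of the 18 mo group, with colours limited at 6 either way. The 21 mo columns hold most of the dark red cells and C4a, Mbl1, Masp2 and Cfb are blue in 21 mo replicate 3, while the O304 columns are mostly pale.

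Most of these genes were higher at 21 mo than at 18 mo, but with wide spread. By edgeR's quasi-likelihood test with Benjamini-Hochberg adjustment over all genes, 0 of the 41 passed an adjusted p of 0.05, a rule met by 0.0189% of all genes. At an unadjusted p under 0.05, 22 of the 41 were higher (53.7%, against 14.0% of all genes) and 2 were lower (12% of all genes). The members were chosen with earlier results of these data known, so such shares describe the members and do not test them as a set. The 3 libraries of each group did not overlap for 15 genes that were higher and 3 that were lower (13.5% and 15.3% of all genes). The median log2 fold change was 1.24 for the 41 genes and 0.03 for all genes, and the smallest adjusted p among them was 0.0626. DESeq2 gave 41 members an adjusted p and called 20 of them (48.8%, against 12.3% of all genes). Limma voom with sample weights called 28 of 41 (68.3%), but it also called 52.9% of all genes.

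These calls depended on which 21 mo mice were included. Replicate 3 of the 21 mo group was the highest of all 9 libraries in 28 of the 41 genes (68.3%, against 28.9% of all genes) and the lowest in 8. Without 21 mo replicate 1, 25 genes were higher and 4 lower at 21 mo past the adjusted threshold (13.6% and 11.9% of all genes). With 21 mo replicate 3 left out, 2 passed it (Cfi and C3ar1, against 0.806% of all genes), and 16 were higher and 3 lower at an unadjusted p under 0.05 (10% and 12.1% of all genes). With 21 mo replicate 2 left out, 0 members passed the adjusted threshold (0.00614% of all genes did). Taking each 21 mo mouse by itself, 18, 25 and 30 of the 41 genes in replicates 1, 2 and 3 lay above the whole 18 mo range, against 31.1%, 37.3% and 41.3% of all genes.

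Most differed the other way between 21 mo/O304 and 21 mo. No member passed the adjusted threshold (0% of all genes did), and 21 were lower and 2 higher at an unadjusted p under 0.05 (12.4% and 8.27% of all genes). The libraries did not overlap for 10 genes that were lower and 2 that were higher (10.5% and 10.8% of all genes). The median log2 fold change was −0.95 for the members and −0.02 for all genes, and the smallest adjusted p was 0.175. This comparison uses the same 21 mo libraries as the one with 18 mo, so the values of both are given side by side and the opposite signs are not independent of each other. In the fit without 21 mo replicate 1, 20 members were lower and 3 higher past the adjusted threshold (12.6% and 10.6% of all genes). Once 21 mo replicate 3 was dropped, none passed it (0.00620% of all genes did), and 11 were lower and 2 higher at an unadjusted p under 0.05 (6.95% and 7.12% of all genes). Once 21 mo replicate 2 was dropped, 0 members passed the adjusted threshold (0% of all genes did). DESeq2 called 14 of 41 (34.1%, against 5.75% of all genes), and limma voom called 21 of 41 (51.2%, against 41.1% of all genes).

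**Figure D3:**
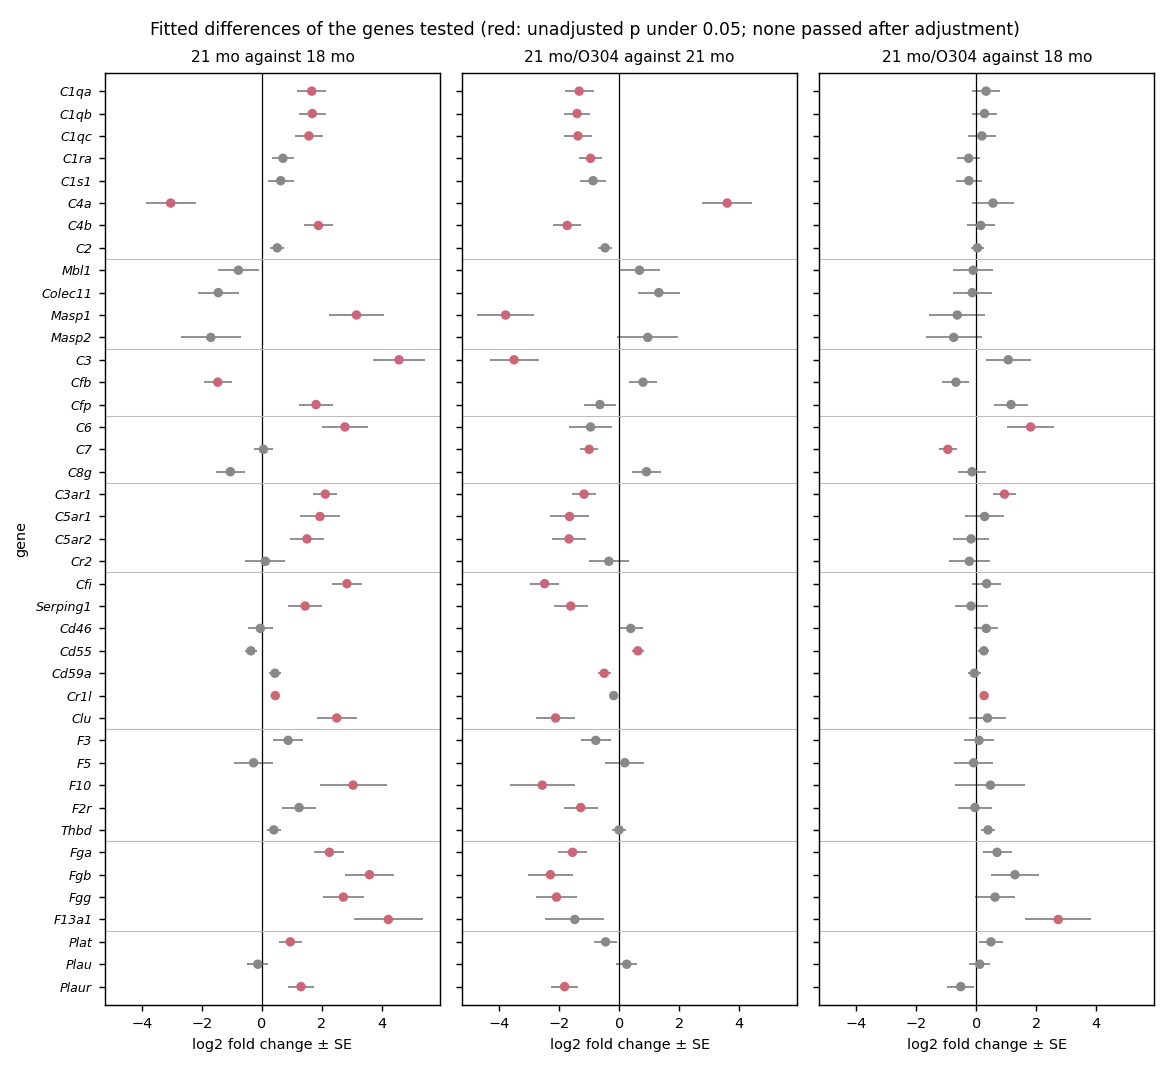
Fitted log2 fold change with its standard error for the 41 tested genes in each of the 3 comparisons, on a shared axis, with red points for an unadjusted p under 0.05. In the first panel 22 red points lie to the right and 2 to the left, in the second 2 to the right and 21 to the left, and in the third 4 to the right and 1 to the left.

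In the classical pathway, 4 of 8 genes were higher at 21 mo at an unadjusted p under 0.05 and 1 was lower. C1qa, C1qb and C1qc encode the chains of C1q, which binds immune complexes and starts the pathway, and they lie side by side on the minus strand of chromosome 4 between positions 136880129 and 136898803 (GRCm38). C1qa was at 86.8, 54.8 and 80.1 CPM in 18 mo replicates 1 to 3, at 120, 123 and 457 CPM at 21 mo, and at 83.7, 88.2 and 106 CPM with O304. All 21 mo mice lay above all others, with replicates 1 and 2 close to the O304 mice and replicate 3 far above them. The log2 fold change of C1qa was 1.66 ± 0.49 (SE, adjusted p = 0.0929, edgeR) for 21 mo against 18 mo and −1.33 ± 0.49 (adjusted p = 0.198) for 21 mo/O304 against 21 mo. C1qb was at 83.9, 59.8 and 80.6 CPM at 18 mo, 118, 151 and 447 CPM at 21 mo, and 87.5, 92.0 and 91.2 CPM with O304. C1qc stood at 55.5, 32.5 and 49.9 CPM, then 67.2, 84.0 and 256 CPM, and then 53.2, 45.4 and 58.2 CPM. Both repeated the order seen for C1qa. Their log2 fold changes were 1.68 ± 0.44 (C1qb, adjusted p = 0.0810, edgeR) and 1.56 ± 0.46 (C1qc, adjusted p = 0.0930) at 21 mo. With O304 they were −1.40 ± 0.44 (adjusted p = 0.178) and −1.38 ± 0.46 (adjusted p = 0.184). Within a library the chains kept nearly fixed proportions per length: of the summed FPKM of the trio, C1qa held 39.3 to 47.2%, C1qb 38.9 to 46.2% and C1qc 12.2 to 15.2% over all 9 libraries. Without 21 mo replicate 3 the log2 fold changes of C1qa, C1qb and C1qc at 21 mo were 0.70, 0.83 and 0.70, and without replicate 1 they were 1.99, 2.02 and 1.90 and passed the adjusted threshold. The O304 comparison gave −0.38, −0.57 and −0.52 without replicate 3, and −1.66, −1.74 and −1.71, past the threshold, without replicate 1. The macrophage marker sum was also highest in 21 mo replicate 3, at 2793 CPM, of which Lyz2 made up 2197 CPM. The part of macrophages in the C1q values was not tested.

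**Figure D4:**
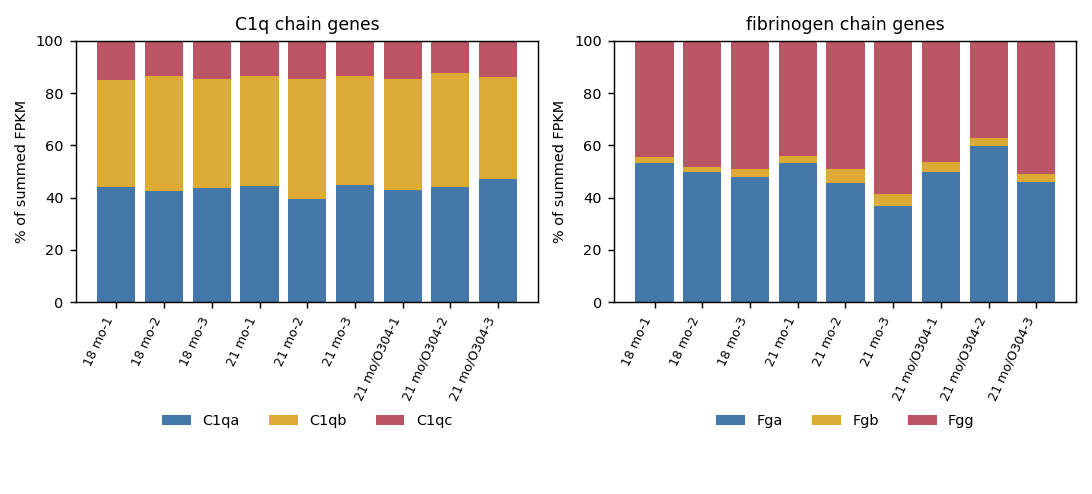
Share of each chain gene (% of the summed FPKM of its trio) in the 9 libraries, for C1q on the left and fibrinogen on the right. The C1q shares stay within 39.3 to 47.2% (C1qa), 38.9 to 46.2% (C1qb) and 12.2 to 15.2% (C1qc), while Fga ranges from 36.7 to 59.8% and Fgb from 1.64 to 5.36%.

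The proteases of the C1 complex varied less. C1ra was at 16.2, 14.4 and 19.1 CPM at 18 mo, 12.5, 30.5 and 37.5 CPM at 21 mo, and 9.19, 15.1 and 17.4 CPM with O304, with 21 mo replicate 1 below every 18 mo mouse. Its log2 fold change for 21 mo/O304 against 21 mo was −0.95 ± 0.38 (adjusted p = 0.214, edgeR). C1s1, its neighbour on chromosome 6, ranged from 14.8 to 59.8 CPM and C2, the protease that pairs with C4, from 13 to 28.5 CPM, and both groups of 21 mo mice overlapped the 18 mo mice in these genes. With 21 mo replicate 1 left out, the adjusted threshold was passed at 21 mo by C1ra (1.05) and C2 (0.71), and with O304 by C1ra (−1.30), C1s1 (−1.24) and C2 (−0.67). Without replicate 3, the fold changes at 21 mo were 0.36 for C1ra and −0.05 for C1s1.

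C4b and C4a differed in opposite directions. They are near-identical copies on chromosome 17 (C4b at 34728380 to 34743882, minus strand, with C4a ending at 34823464), so the split of reads between them is uncertain. C4b, the main source of C4, was at 19.1, 23.3 and 33.4 CPM at 18 mo, 41.4, 63.3 and 175 CPM at 21 mo, and 28.8, 26.3 and 29.0 CPM with O304. All 21 mo values lay above all others. Its log2 fold changes were 1.88 ± 0.47 (adjusted p = 0.0775, edgeR) at 21 mo and −1.73 ± 0.47 (adjusted p = 0.175) with O304. C4a, a low-abundance copy, had 29, 41 and 38 counts at 18 mo, 7, 6 and 0 at 21 mo, and 32, 90 and 36 with O304. These gave −3.05 ± 0.83 (adjusted p = 0.0844) and 3.60 ± 0.83 (adjusted p = 0.175). The 0 counts in 21 mo replicate 3 allow up to 0.137 CPM, counting error alone. C4a made up 6.04 to 9.79% of the counts on both copies at 18 mo and 6.07 to 16.9% with O304. At 21 mo it made up 1.12% (exact 95% interval 0.451 to 2.29%), 0.536% (0.197 to 1.16%) and 0% (upper bound 0.0967%). The low share of C4a at 21 mo was thus present in each of the 3 mice, replicate 1 included. In the fit without 21 mo replicate 1, C4b (2.25 and −2.09) and C4a (−3.69 and 4.25) passed the adjusted threshold in both comparisons, and without replicate 3 neither did (1.03 and −0.89 for C4b, −2.42 and 2.97 for C4a).

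The lectin pathway showed no common direction, and its 4 tested genes had a median of −1.12 (log2 fold change) at 21 mo. Masp1, a serine protease carried by the lectins, was at 1.92, 1.05 and 1.58 CPM at 18 mo, 2.14, 5.63 and 32.7 CPM at 21 mo, and 0.465, 1.19 and 1.27 CPM with O304. Its 21 mo mean rests mostly on replicate 3. Its log2 fold changes were 3.15 ± 0.91 (adjusted p = 0.0893, edgeR) and −3.79 ± 0.95 (adjusted p = 0.175). Once 21 mo replicate 3 was dropped they were 1.34 and −1.98, and without replicate 1 they were 3.67 and −4.30, past the adjusted threshold. In that same replicate 3, the pattern recognition genes were at their lowest: Mbl1 was at 0.641 CPM against 4.42 to 10.4 CPM in the other 8 libraries, and Colec11 (collectin-11) at 0.229 CPM against 0.930 to 3.79 CPM. Masp2, the protease that cleaves C4 and C2, was at 0.735 to 1.61 CPM at 18 mo, at 0.937, 0.227 and 0 CPM at 21 mo and at 0.255 to 1.16 CPM with O304. Without 21 mo replicate 1, Masp2 was lower at 21 mo past the adjusted threshold (−3.42), on 4 and 0 counts in 21 mo replicates 2 and 3. It was −1.71 in the fit of all 9 libraries and −1.09 without replicate 3, and passed in neither. Masp1 overlaps Rtp4, Gm45338 and Gm49514 on the other strand, and Masp2 overlaps Tardbp on the other strand. The strand setting is not known, so the counts of Masp1 and Masp2 may include reads of those genes.

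C3, the protein on which the pathways converge, had the largest log2 fold change of the 41 genes at 21 mo in the edgeR fit of all 9 libraries. It was at 18.2, 38.6 and 31.6 CPM at 18 mo, at 73.8, 809 and 1217 CPM at 21 mo, and at 60.0, 49.2 and 75.6 CPM with O304. Replicate 1 of the 21 mo group sat inside the range of the O304 mice and above the 18 mo range, while replicates 2 and 3 were more than an order of magnitude higher. The mean was 29.5 ± 10.4 CPM at 18 mo, 700 ± 579 CPM at 21 mo and 61.6 ± 13.3 CPM with O304 (SD, n = 3 each). The log2 fold change was 4.57 ± 0.86 (adjusted p = 0.0626, edgeR) for 21 mo against 18 mo and −3.51 ± 0.82 (adjusted p = 0.175) for 21 mo/O304 against 21 mo. With 21 mo replicate 1 left out, C3 passed the adjusted threshold in both comparisons (5.12 and −4.05), and without replicate 3 in neither (3.88 and −2.83). C3 lies on the minus strand of chromosome 17 from 57203970 to 57228136. The injured tubule marker sum was likewise lower in 21 mo replicate 1 (1305 CPM) than in replicates 2 and 3 (12252 and 14080 CPM). Its 1305 CPM still lay above all 18 mo and O304 libraries (at most 786 and 1048 CPM). Spp1 alone made up 1235, 11162 and 12555 CPM of these 21 mo sums. All 6 markers were lower in replicate 1 than in the other 21 mo mice. The part of injured tubules in the C3 values was not tested.

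Cfb, the protease that forms the alternative C3 convertase with C3b, differed in the other direction. It was at 29.5, 27.7 and 33.4 CPM at 18 mo, 20.1, 8.13 and 4.58 CPM at 21 mo, and 13.3, 19.1 and 24.1 CPM with O304. All 21 mo and all O304 mice lay below the 18 mo mice. The log2 fold change at 21 mo was −1.48 ± 0.46 (adjusted p = 0.101, edgeR). In the fit without 21 mo replicate 1 it was −2.24 and passed the adjusted threshold, as did the O304 comparison (1.56), and without replicate 3 it was −1.12 and did not pass. Per length, the ratio of C3 to Cfb in FPKM was 0.339 to 0.766 at 18 mo, 2.02, 54.7 and 146 at 21 mo, and 1.41 to 2.48 with O304. Cfb ends 85 bases from C2 on chromosome 17 and both overlap the annotated gene Gm20547, so reads in shared parts could not be assigned by position alone. Cfp encodes properdin, which stabilizes that convertase. It was at 3.79 to 4.27 CPM at 18 mo, at 4.42, 10.1 and 27.2 CPM at 21 mo, and at 6.57, 8.94 and 11.3 CPM with O304. Both later groups lay above all 18 mo mice. Its log2 fold change at 21 mo was 1.80 ± 0.56 (adjusted p = 0.0999), 2.24 without replicate 1, past the adjusted threshold, and 0.85 without replicate 3.

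**Figure D5:**
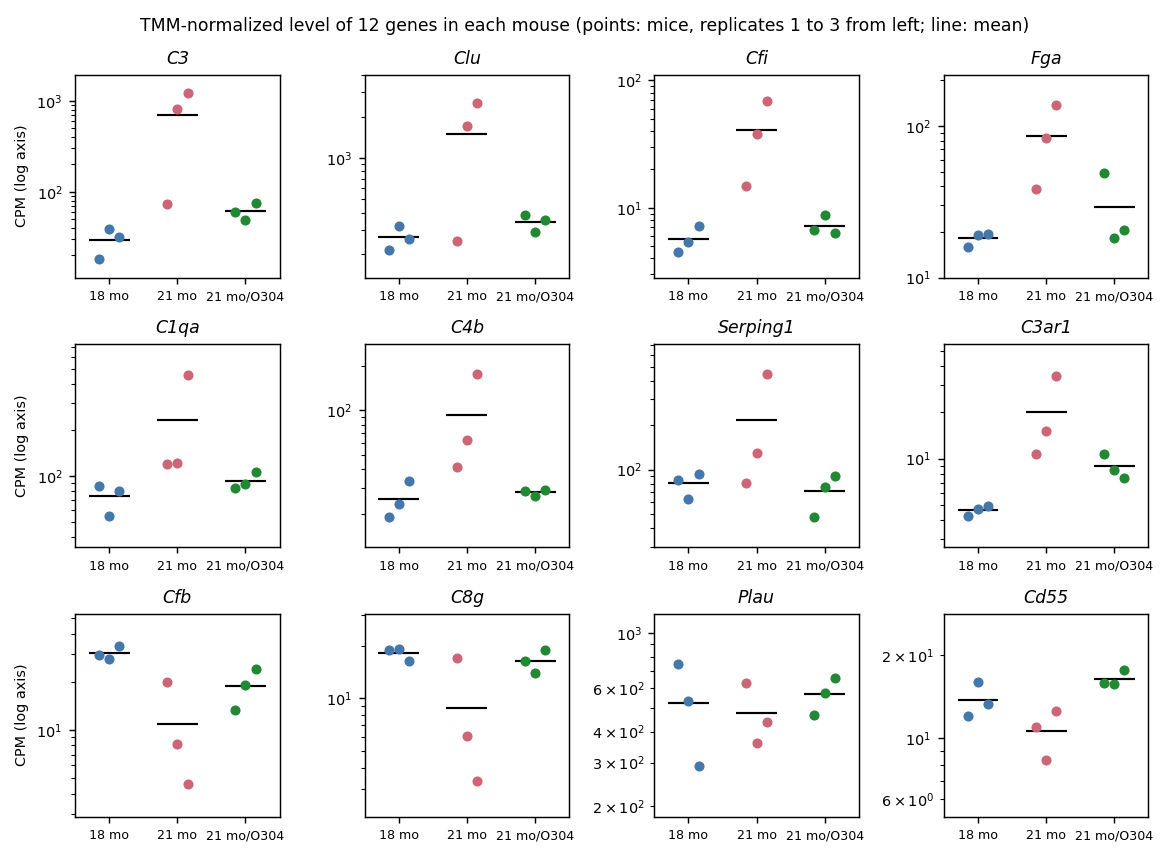
Level (CPM, log axis, ranges differ between panels) of 12 genes in each mouse, with points for replicates 1 to 3 from left to right in each group and a line at the mean of 3. For C3 and Clu 21 mo replicate 1 lies near the other groups (73.8 and 251 CPM) and replicates 2 and 3 far above, and for Cfb and C8g the order is turned over.

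The terminal pathway genes shared no direction. C6 was at 0.495, 0.739 and 0.453 CPM at 18 mo, 0.736, 2.44 and 8.29 CPM at 21 mo and 2.56, 1.49 and 1.91 CPM with O304, and its log2 fold change at 21 mo was 2.76 ± 0.78 (adjusted p = 0.0864, edgeR). Once 21 mo replicate 1 was dropped it was 3.26, past the adjusted threshold, and without replicate 3 it was 1.48. C7, the next component to join the complex, was at 19.1, 11.3 and 21.2 CPM, then 15.1, 13.8 and 24.5 CPM, and then 6.86, 10.6 and 9.23 CPM. It was lower with O304 than in either other group, with a log2 fold change of −1.0 ± 0.31 (adjusted p = 0.176) against 21 mo and −0.95 ± 0.31 (adjusted p = 0.396) against 18 mo. C8g, a lipocalin chain of C8, was at 16.2 to 19.0 CPM at 18 mo and 13.9 to 19.0 CPM with O304, but at 16.9, 6.02 and 3.34 CPM in the 21 mo replicates. Without 21 mo replicate 1, C8g was lower at 21 mo (−1.94) and higher with O304 (1.80), and C7 was lower with O304 (−1.11), past the adjusted threshold. The proximal tubule marker sum was likewise low in 21 mo replicates 2 and 3 (6302 and 1518 CPM), and its part was not tested. C8g overlaps Fbxw5.

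The anaphylatoxin receptors were higher at 21 mo at an unadjusted p under 0.05 in each of the 3 cases. C3ar1, the receptor for the C3a fragment, was at 4.27, 4.74 and 4.92 CPM at 18 mo, 10.7, 15.1 and 34.4 CPM at 21 mo, and 10.8, 8.46 and 7.51 CPM with O304. All 6 older mice lay above the 18 mo range, and the O304 mice reached the lowest 21 mo mouse. The log2 fold change was 2.11 ± 0.40 (adjusted p = 0.0626, edgeR) at 21 mo and −1.17 ± 0.39 (adjusted p = 0.182) with O304. C3ar1 passed the adjusted threshold at 21 mo both without replicate 1 (2.43) and without replicate 3 (1.45), and with O304 only without replicate 1 (−1.48, against −0.52 without replicate 3). It did not pass in either comparison without 21 mo replicate 2. C5ar1, the main receptor for C5a, was at 1.29 to 3.96 CPM at 18 mo, 4.42, 4.49 and 22.1 CPM at 21 mo and 2.97 to 3.50 CPM with O304, with log2 fold changes of 1.93 ± 0.66 (adjusted p = 0.119) and −1.66 ± 0.65 (adjusted p = 0.213). With 21 mo replicate 3 left out these were 0.70 and −0.43, and without replicate 1 they were 2.31 and −2.02, past the adjusted threshold. C5ar2, a second C5a receptor that lies next to it on chromosome 7, was at 0.453 to 1.24 CPM, then 1.61, 1.02 and 3.53 CPM, and then 0.509 to 0.775 CPM, with 1.5 ± 0.57 (adjusted p = 0.147) and −1.67 ± 0.58 (adjusted p = 0.188), and 0.83 and −1.01 without replicate 3. Cr2, a complement receptor of B cells, ranged from 0.321 to 2.22 CPM with overlapping groups. Like C1q, C3ar1, C5ar1 and C5ar2 were highest in 21 mo replicate 3, where the macrophage sum was 2793 CPM (mostly Lyz2). The part of macrophages was not tested.

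Among the regulators, Cfi and Clu stood out. Cfi encodes factor I, which cleaves C3b and C4b, and lies on chromosome 3 from 129835884 to 129875332. It was at 4.52, 5.36 and 7.24 CPM at 18 mo, 14.8, 37.7 and 69.4 CPM at 21 mo, and 6.69, 8.70 and 6.37 CPM with O304. Every 21 mo mouse, replicate 1 included, lay above every other mouse. The log2 fold change was 2.83 ± 0.49 (adjusted p = 0.0626, edgeR) at 21 mo and −2.49 ± 0.48 (adjusted p = 0.175) with O304. In the fit without 21 mo replicate 1 it was 3.24 and −2.89, past the adjusted threshold in both, and without replicate 3 it was 2.18, still past it, and −1.85, which was not. Without 21 mo replicate 2, Cfi passed in neither comparison. Clu, a secreted chaperone that blocks the terminal complex and is abundant in injured tubules, was at 216, 321 and 260 CPM at 18 mo, 251, 1711 and 2522 CPM at 21 mo, and 386, 292 and 354 CPM with O304. Replicate 1 of the 21 mo group lay within the 18 mo range, so the groups overlapped. Its log2 fold changes were 2.49 ± 0.66 (adjusted p = 0.0812) and −2.12 ± 0.65 (adjusted p = 0.176), with 3.01 and −2.63, past the adjusted threshold, without that mouse, and 1.86 and −1.50 without replicate 3.

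Serping1, the inhibitor of the C1 proteases and of plasma kallikrein, was at 84.5, 63.1 and 93.9 CPM at 18 mo, 81.7, 129 and 444 CPM at 21 mo, and 47.6, 76.3 and 90.0 CPM with O304. Its log2 fold change was 1.44 ± 0.56 (adjusted p = 0.151, edgeR) at 21 mo but 0.37 without replicate 3, and −1.61 ± 0.56 (adjusted p = 0.189) with O304 but −0.55 without it. Without replicate 1 these were 1.85 and −2.02, past the adjusted threshold. The membrane-bound regulators differed little in size. Cr1l, which encodes Crry, the main rodent inhibitor of C3 convertases on cells, was at 48.5, 46.6 and 46.3 CPM at 18 mo, 68.8, 56.4 and 66.9 CPM at 21 mo, and 55.0, 55.7 and 58.6 CPM with O304. Its spread was so narrow that a log2 fold change of 0.44 ± 0.10 had an adjusted p of 0.0716 (edgeR). Once 21 mo replicate 1 was dropped it was 0.40 and passed the adjusted threshold, and without replicate 3 it was 0.39 and did not. Cd55, which speeds decay of the convertases, was at 12, 15.9 and 13.3 CPM, then 11, 8.30 and 12.6 CPM, and then 15.8, 15.7 and 17.6 CPM, so the O304 mice lay above the 21 mo mice with a log2 fold change of 0.62 ± 0.19 (adjusted p = 0.176). Cd59a, which blocks the pore, was at 28.4 to 45.3 CPM, 41.7 to 57.0 CPM and, with O304, 42.0, 29.1 and 30.8 CPM, with −0.50 ± 0.21 (adjusted p = 0.234) for O304 against 21 mo. Cd46 stayed at 0.739 to 1.78 CPM in all libraries.

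The fibrinogen genes gave the largest median of any role, with a log2 fold change of 3.15 at 21 mo over Fga, Fgb, Fgg and F13a1, all 4 higher at an unadjusted p under 0.05. Fgg, Fga and Fgb encode the gamma, alpha and beta chains and lie together on chromosome 3 between 83007724 and 83049863. Fga was at 16.0, 19.2 and 19.3 CPM at 18 mo, 38.2, 83.8 and 136 CPM at 21 mo, and 49.3, 18.2 and 20.5 CPM with O304. Fgg was at 9.29, 13 and 13.8 CPM, then 22.0, 63.0 and 152 CPM, and then 31.9, 7.87 and 15.8 CPM. All 21 mo mice lay above all 18 mo mice, while 21 mo/O304 replicate 1 stood above 21 mo replicate 1 and the other O304 mice were near the 18 mo level. Fgb was the lowest of the trio, at 0.743 to 1.53 CPM at 18 mo, 2.68, 12.5 and 21.9 CPM at 21 mo, and 4.71, 1.13 and 1.72 CPM with O304. The log2 fold changes at 21 mo were 2.25 ± 0.50 for Fga (adjusted p = 0.0672, edgeR), 3.58 ± 0.82 for Fgb (adjusted p = 0.0697) and 2.71 ± 0.70 for Fgg (adjusted p = 0.0789). With O304 against 21 mo they were −1.56 ± 0.48 (adjusted p = 0.177), −2.29 ± 0.76 (adjusted p = 0.182) and −2.09 ± 0.68 (adjusted p = 0.181). Without 21 mo replicate 1, all 3 passed the adjusted threshold in both comparisons (2.62, 4.07 and 3.17 at 21 mo, −1.91, −2.77 and −2.54 with O304), and without replicate 3 none did (1.73, 2.86 and 1.80, and −1.05, −1.58 and −1.19).

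Plasma fibrinogen is made by hepatocytes. The 9 hepatocyte markers summed to 129 to 189 CPM at 18 mo, 392, 113 and 64.7 CPM in 21 mo replicates 1 to 3, and 118 to 188 CPM with O304. Alb (albumin) was at 4.65 to 6.72 CPM at 18 mo, 11.3, 1.93 and 0.504 CPM at 21 mo and 9.80 to 16.9 CPM with O304. Most of the hepatocyte sum came from Ttr and Serpina1a. They were at 228 and 146 CPM in 21 mo replicate 1, and at 32.2 and 29.2 CPM in replicate 3. Apoa1, Serpina3k, Ahsg and Hpx were at 0 to 1.63 CPM in all libraries, so the sum mainly follows Ttr and Serpina1a. It was highest in 21 mo replicate 1, where Fga, Fgb and Fgg already lay above every 18 mo mouse. It was lowest in replicate 3, where the fibrinogen genes were highest. The injured tubule sum, mostly Spp1, was 1305, 12252 and 14080 CPM in 21 mo replicates 1 to 3. The part of either cell type in the fibrinogen values was not tested. Per length the chains were less fixed in proportion than those of C1q, with Fga at 36.7 to 59.8%, Fgg at 37.2 to 58.6% and Fgb at 1.64 to 5.36% of the summed FPKM.

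F13a1 encodes the A chain of factor XIII, which crosslinks fibrin, and is expressed in macrophages and platelets. It was at 1.49, 0.308 and 1.70 CPM at 18 mo, 3.41, 6.19 and 55.5 CPM at 21 mo, and 5.47, 4.05 and 13.9 CPM with O304. All 6 older mice lay above the 18 mo mice. The log2 fold change was 4.21 ± 1.15 (adjusted p = 0.0844, edgeR) at 21 mo, 4.73 without replicate 1, which passed the adjusted threshold, and 2.02 without replicate 3. It was 2.73 ± 1.11 (adjusted p = 0.479) for 21 mo/O304 against 18 mo.

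The genes at the start and in the common path of coagulation differed less, and of 5 genes (median 0.87 at 21 mo, log2 fold change) 1 had an unadjusted p under 0.05. F10 (factor X) was at 0.185 to 0.622 CPM at 18 mo, 0.803, 0.568 and 7.92 CPM at 21 mo and 0.174 to 1.07 CPM with O304, and rested on 1 mouse: its log2 fold changes of 3.04 ± 1.12 (adjusted p = 0.136, edgeR) and −2.57 ± 1.08 (adjusted p = 0.23) were 0.83 and −0.37 without 21 mo replicate 3. F2r, the thrombin receptor PAR1, was at 55.9, 53.0 and 103 CPM at 18 mo, 68.0, 100 and 329 CPM at 21 mo and 43.8, 85.2 and 75.8 CPM with O304, with −1.28 ± 0.56 (adjusted p = 0.239) for O304 against 21 mo and −0.29 without replicate 3. F3 (tissue factor, the trigger of clotting) was at 13.7 to 22.0 CPM, then 13.6, 26.7 and 61.6 CPM, and then 14.7 to 29.2 CPM. With 21 mo replicate 1 left out, F10 (3.50), F2r (1.62) and F3 (1.26) were higher at 21 mo, and F2r was lower with O304 (−1.66), past the adjusted threshold. Without replicate 3, the 21 mo log2 fold changes of F2r and F3 were 0.24 and 0.10 and did not pass. F5, the cofactor of factor X, ranged from 1.74 to 9.79 CPM and Thbd (thrombomodulin, which turns thrombin into an anticoagulant) from 23.1 to 47.9 CPM, with overlapping groups.

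Of the plasminogen genes, Plaur, the urokinase receptor, was at 7.06, 4.07 and 7.35 CPM at 18 mo, 6.96, 13 and 25.6 CPM at 21 mo, and 3.49, 4.89 and 4.52 CPM with O304. All O304 mice lay below all 21 mo mice. Its log2 fold changes were 1.30 ± 0.44 (adjusted p = 0.116, edgeR) and −1.82 ± 0.45 (adjusted p = 0.175), with 0.68 and −1.20 without 21 mo replicate 3, and 1.66 and −2.17 without replicate 1, past the adjusted threshold. Plat (tissue plasminogen activator) was at 33.1 to 46.3 CPM, then 37.8, 67.6 and 118 CPM, and then 35.7, 59.4 and 68.1 CPM, and its 0.94 ± 0.39 (adjusted p = 0.167) at 21 mo was 0.43 without replicate 3 and 1.28 without replicate 1, when it passed. Plau, the urokinase gene that tubules transcribe strongly, ranged from 291 to 746 CPM within the 18 mo group alone, a span that held all other mice (359 to 658 CPM).

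Against the 18 mo group the O304 mice differed in few of these genes. None passed the adjusted threshold (0% of all genes did), 4 were higher (C6, C3ar1, Cr1l and F13a1) and 1 was lower (C7) at an unadjusted p under 0.05 (4.33% and 5.33% of all genes). The libraries did not overlap for 7 genes that were higher and 2 that were lower (13.2% and 13.3% of all genes). The median log2 fold change was 0.18 for the members and 0.00 for all genes, and the smallest adjusted p was 0.396 (edgeR). DESeq2 and limma voom also called 0 members (0.884% and 2.61% of all genes). In single mice, 11, 14 and 18 of the 41 genes in O304 replicates 1 to 3 lay above the 18 mo range, against 30.0%, 32.3% and 31.7% of all genes. Among these genes C3ar1 had a log2 fold change of 0.94 ± 0.39 (adjusted p = 0.495), C6 of 1.81 ± 0.78 (adjusted p = 0.507) and Cr1l of 0.26 ± 0.10 (adjusted p = 0.478).

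Further genes of both pathways, 69 listed by function and 44 of them tested, leaned the same way less strongly. This list, like the members, was chosen with earlier results of these data known, so it is no independent check of them. At 21 mo 15 were higher and 3 lower at an unadjusted p under 0.05 (34.1% and 6.82%, against 14.0% and 12% of all genes). With O304 against 21 mo 3 were higher and 14 lower (6.82% and 31.8%, against 8.27% and 12.4% of all genes). Their median log2 fold changes were 0.41 and −0.35. None passed the adjusted threshold. The 4 with the smallest p at 21 mo were S100a10, a partner of annexin A2 in plasmin formation (1.08 ± 0.23, adjusted p = 0.0626, edgeR), Serpina10, the inhibitor of factor X (3.92 ± 0.97, adjusted p = 0.0767), Pros1 (protein S, 1.48 ± 0.39, adjusted p = 0.0810) and F2rl1 (the receptor PAR2, 1.30 ± 0.35, adjusted p = 0.0823). S100a10 was at 110, 110 and 90.2 CPM at 18 mo, 155, 218 and 284 CPM at 21 mo and 143, 106 and 115 CPM with O304. Serpina10 was at 0.735 to 5.33 CPM, 4.62, 68.1 and 59.8 CPM, and 1.49 to 3.72 CPM, which is the division among 21 mo mice seen for C3 and Clu.

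With O304 against 21 mo the leading genes of that list were Vwf (von Willebrand factor, −1.99 ± 0.42, adjusted p = 0.175, edgeR), Cpn1 (the carboxypeptidase that inactivates anaphylatoxins, −0.88 ± 0.20, adjusted p = 0.175), Serpina10 (−4.15 ± 0.98, adjusted p = 0.175) and A2m (alpha-2-macroglobulin, −2.76 ± 0.70, adjusted p = 0.175). Cpn1 was at 64.7, 71.6 and 87.9 CPM at 18 mo, 106, 158 and 104 CPM at 21 mo and 59.4, 74.6 and 66.0 CPM with O304, and here 21 mo replicate 1 stood with the other 21 mo mice. A2m rested on few reads, at 0.602, 1.88 and 1.69 CPM at 21 mo and 0.349, 0.0596 and 0.191 CPM with O304. In the O304 libraries 3 counts were worth 0.174 to 0.191 CPM. For 21 mo/O304 against 18 mo, Cfd (factor D, the protease that activates factor B, also called adipsin) was at 0, 0 and 4.19 CPM, against 78.4, 4.23 and 76.7 CPM with O304 (5.21 ± 1.53, adjusted p = 0.351). Fat cell markers, a list that includes Cfd, summed to 135, 9.60 and 111 CPM in those O304 libraries and to 0.123 to 8.37 CPM at 18 mo. Cfd itself made up 78.4, 4.23 and 76.7 CPM of the O304 sums, so these sums partly repeat its values. The part of fat cells was not tested.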

How the data were processed

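Kidney RNA from 9 mice (3 per group) was sequenced by the authors after a NEBNext Ultra library preparation. Per the labels and the methods, paired reads were aligned to GRCm38 (mm10) with HISAT2 2.0.5 and counted per gene with featureCounts 1.5.0-p3. The labels number 3 libraries per group, taken here as separate mice because the study describes groups of animals. If they are not, p-values measure a technical spread. Which kidney was sampled, the strand setting and the treatment of multi-mapped reads are not given in the sources used here, so antisense and near-identical genes are uncertain. The deposited read counts were not normalized, and the FPKM values deposited beside them are counts per gene length and library size. FPKM was used here between genes within a library and, as group means, to rank the members within a group. The deposited table also holds group means, fold changes and p-values of the authors' DESeq2 1.20.0 comparisons, which were not used.

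Counts were tested with edgeR 4.0.16 (R 4.3.3) using TMM, filterByExpr (minimum count 10, minimum total 15) and the quasi-likelihood test on all 9 libraries with group means (6 residual degrees of freedom), and p was adjusted by Benjamini-Hochberg over all 15902 genes tested. The standard error is the log2 fold change over the root of F. Alternatives were DESeq2 1.42.0, limma 3.58.1 voom with sample weights, upper-quartile scaling, no count filter, only the 6 libraries compared, a replicate block and leaving out each mouse. Genes were matched by name, and all 46 matched RefSeq (GRCm38.p6). Every member is named, with statistics where the unadjusted p was under 0.05, and at most 4 further pathway genes per comparison by smallest p. Members and lists were chosen with earlier results of these data known. No libraries were duplicates (smallest chi-square per degree of freedom 14.0). Intervals and floors of 3 counts cover counting error only. The code was tested on simulated counts with 200 genes changed 4-fold at 21 mo and 1 spread per gene for all groups. At an adjusted p under 0.05, 3.82% of the genes called by edgeR were false. The share was 21.3% for DESeq2 and 4.58% for limma voom. Of the changed genes, edgeR recovered 75.5%, DESeq2 88.5% and limma voom 73%. In the real data the biological coefficient of variation was 44.1% at 21 mo, against 18.1% and 20.6% in the other groups. The simulated shares therefore need not hold for the real data.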

Additional observations from a re-analysis of the deposited data

How the results depend on the processing

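No member's difference with an unadjusted p under 0.05 changed direction under any alternative run, but the number of members past the adjusted threshold depended on the method and on single mice. For 21 mo against 18 mo it was 0 as reported, 20 by DESeq2 (12.3% of all genes called), 11 with every gene of at least 1 count (2.04%), 28 by limma voom (52.9%), and 0 to 29 when each mouse was left out (0 to 25.4%). For 21 mo/O304 against 21 mo it was 0, 14 (5.75%), 1 (0.0602%), 21 (41.1%) and 0 to 23 (0 to 23.1%) in the same order, so the calls over all genes moved with these settings too. At an unadjusted p under 0.05, the members lower at 21 mo numbered 2 as reported, 4 by DESeq2, 4 with every gene of at least 1 count, 4 with the replicate block, 6 by limma voom and 2 to 4 with a mouse left out, and those higher numbered 16 to 27 with a mouse left out. For 21 mo/O304 against 21 mo, members higher numbered 6 by limma voom and 2 to 5 with a mouse left out, and those lower 11 to 27. For 21 mo/O304 against 18 mo, those higher numbered 0 to 6 with a mouse left out, and those lower numbered 2 in the fit of 6 libraries, 2 by limma voom and 0 to 2 with a mouse left out. The labels give a replicate number but no shared batch, and same-numbered mice did not deviate together (r = −0.130 to 0.175). With the replicate number as a block, 24 members were higher and 4 lower at 21 mo, 3 higher and 21 lower with O304 against 21 mo, and 0 passed the adjusted threshold in any comparison. Limma voom gave 21 mo replicates 1, 2 and 3 weights of 0.223, 9.11 and 0.132, so its calls at 21 mo lean on replicate 2. Depth limits the 5 members under the filter, at 0 to 14 counts.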
